A study of Homo sapiens with 10 samples.

Results

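HAND2 lies on the long arm of chromosome 4, and the stretch examined here runs from 174400000 to 175250000 on hg19 (positions count from 1), over HAND2 at about 174.447 to 174.451 Mb and on toward FBXO8. Every peak in that stretch was taken from 8 deposited ChIP-seq (chromatin immunoprecipitation and sequencing) peak lists. It held 126 of the 26482 peaks of those lists. Peaks that shared at least 1 bp were joined into sites, which gave 35 of the 10251 sites of the coactivator MAML3 and 10 of the 2120 sites of the retinoic acid receptor RARα. The stretch was chosen by measured values, namely the number of its MAML3 peaks, their score ranks and the RARα peaks at the highest of them, so its peak numbers and ranks are descriptions and were not tested.

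HAND2 encodes a basic helix-loop-helix transcription factor that binds E-box sequences together with E proteins. It is required for sympathetic neurons to form, and it belongs to the adrenergic core regulators of neuroblastoma. MAML3 is a mastermind-like protein, best known as a coactivator that joins the complex of the Notch intracellular domain with RBPJ on DNA. RARα pairs with a retinoid X receptor on DNA and changes its cofactors when retinoic acid binds, and retinoic acid drives neuroblastoma cells toward neuronal differentiation.

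The cells were SK-N-SH, an established human neuroblastoma line, kept for 24 hours in medium with charcoal-stripped serum, which is depleted of retinoids and steroids, in every group. Treatment was with retinoic acid (RA) at 1 µM, or with vehicle alone (untreated, UT). How long RA was present is not stated. Each antibody has 2 lists per treatment, called here MAML3 UT 1 and 2, MAML3 RA 1 and 2, RARα UT 1 and 2, and RARα RA 1 and 2. No label ties a replicate to a culture of its own, so the spread within a group may be technical.

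The lists hold 2222 to 7532 peaks for MAML3 and 251 to 1321 for RARα, and their read depth is not known here. MAML3 UT 1 and RARα UT 2 are the shortest of their antibody. The names of the MAML3 UT lists carry 1 shared library number and index tag, so both may come from 1 library, and the name of RARα UT 2 carries a tag for merged data that no label explains. Each peak has 1 score, which was turned into a percentile within its own list (100 is the highest). Peaks are tied at a score of 3100 at or near the top of each MAML3 list, called the ceiling here. It was reached or passed by 3 to 16 peaks of a MAML3 list. Peaks tied at the ceiling therefore cannot be ordered, and percentiles of lists of unlike length are not levels.

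The RefSeq annotation at hand is on GRCh38.p14 and gave only the order of genes. Between HAND2 and FBXO8, which encodes an F-box protein, it lists 11 genes, 9 of them lncRNAs and 2 pseudogenes, and no further protein-coding gene. The first is HAND2-AS1, the lncRNA on the opposite strand that begins at HAND2. CEP44, which encodes a centrosomal protein, follows FBXO8. Which of these genes each site falls in was not analysed here.

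The peaks were spread unevenly. MAML3 UT 1 held 21 peaks in the stretch and MAML3 UT 2 held 30 (mean 25.5 ± 6.36, SD, n = 2), whereas MAML3 RA 1 held 28 and MAML3 RA 2 held 24 (mean 26 ± 2.83, SD, n = 2). In number of peaks, the treatments differed by less than the 2 UT lists did. The 21 peaks of UT 1 stand for 19 sites. RARα UT 1 and 2 held 9 and 5 peaks (mean 7 ± 2.83, SD, n = 2), and RARα RA 1 and 2 held 5 and 4 (mean 4.5 ± 0.707, SD, n = 2). As a share of the whole list, the stretch held 0.945 and 0.444% in MAML3 UT 1 and 2 and 0.372 and 0.385% in RA 1 and 2. For RARα it was 0.681 and 1.99% in UT 1 and 2 and 0.453 and 0.376% in RA 1 and 2. Both UT shares were thus above both RA shares for each antibody, and the shortest list of each antibody had the highest share. With 2 lists against 2, a two-sided exact permutation p cannot fall below 0.33, so these numbers were not tested.

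**Figure D1:**
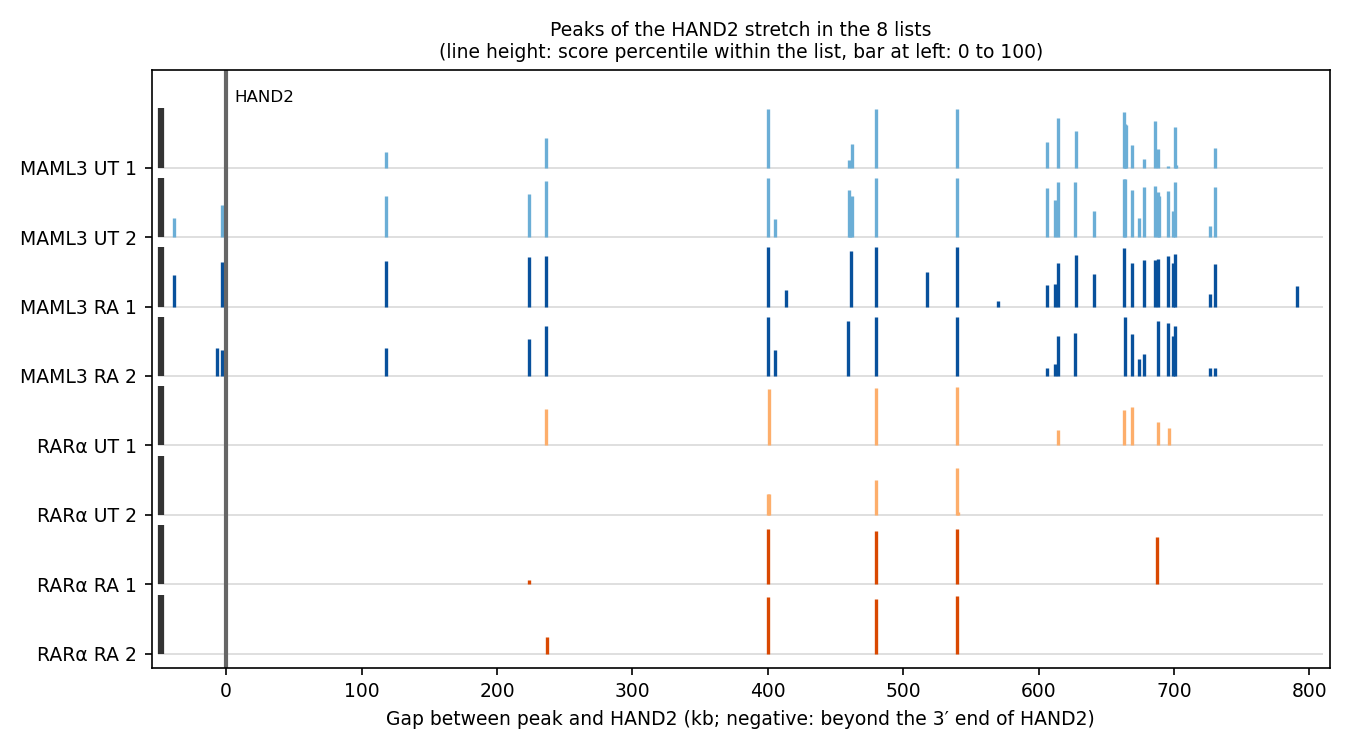
Peaks of the stretch by gap from HAND2 (kb, horizontal) in the 8 lists (rows), each peak a line whose height is its score percentile within the list. The 3 tall lines between 400 and 540 kb stand in every row except that RARα UT 2 has lower ones, and no list has a line over HAND2.

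Set against the rest of the genome, the stretch was crowded with MAML3. When the genome was divided into 3611 windows of the same length of 850 kb, a window held on average 0.615 peaks of MAML3 UT 1, 1.87 of MAML3 UT 2, 2.09 of MAML3 RA 1 and 1.73 of MAML3 RA 2. The fullest of the windows away from HAND2 held 10, 22, 23 and 22 peaks of these lists, fewer than the stretch in each of the 4. Such windows stand on a fixed grid, while the stretch was placed around its peaks, so the 2 are not on equal terms. For RARα, 1 other window held as many peaks as the stretch in UT 1, 2 did in UT 2, 11 in RA 1 and 39 in RA 2.

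Windows placed to start at any MAML3 site avoid the fixed grid. The stretch was still chosen by its MAML3 peaks and the RARα at them, so its place among such windows is only a description. The stretch held 23 MAML3 sites present in at least 3 lists (65.7% of its 35, beside 40.4% of all MAML3 sites), and the 3 fullest such windows elsewhere held 19, 16 and 15, on chromosomes 5, 5 and 1. Those 3 held 0, 0 and 1 site common to all 8 lists, whereas the HAND2 stretch held 3. RARα was not scarce in them, with 7, 12 and 10 sites against 10.

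Seen by presence, 14 of the 35 MAML3 sites (40%) were in all 4 lists, beside 16.8% of all MAML3 sites. A further 9 were in 3 lists, 6 in 2 lists and 6 in 1 list (17.1%, beside 37.2% of all MAML3 sites). The median over sites of the mean percentile was 61.8, and it was 38.1 over all MAML3 sites. The sites in all 4 lists had a median of 74.6, close to the 74.4 of the 1724 such sites of the whole series.

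No list had a peak over HAND2 itself. HAND2 is on the minus strand, so lower coordinates lie beyond its 3′ end. The nearest MAML3 site was on that side, 3.2 kb from the gene at 174443462 to 174443811 (the gene's ends are known here to the nearest kb). It was at the 53.9th percentile in MAML3 UT 2, the 75.9th in RA 1 and the 44.7th in RA 2, and it was absent from UT 1. It was thus a site of middle rank in the 3 longer lists.

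Beyond it lay a site of MAML3 RA 2 alone at 174440350 to 174440649 (47.5th percentile) and a site at 174408299 to 174408661, held by UT 2 (31.7th) and RA 1 (53.0th). On the 5′ side of HAND2 no listed peak came closer than 118 kb, where the site at 174568950 to 174569448 was in all 4 MAML3 lists at the 25.6th and 69.6th percentile in UT 1 and 2 and the 76.4th and 47.6th in RA 1 and 2. The UT and RA ranges overlapped. No listed RARα peak lay closer to HAND2 than 223.7 kb.

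The empty interval around HAND2 is not complete in the RA lists. Peaks are numbered along the chromosome, and MAML3 RA 1 skips number 5252 and RA 2 skips number 4427 between the 3.2-kb site and the 118-kb site, an interval that includes HAND2. In each of these lists 1 numbered peak of that interval was therefore not analysed here. MAML3 UT 2 skips no number anywhere in the stretch, and UT 1 skips only number 1633, far from the gene, between 174931300 and 174990899. RARα RA 1 skips 2 numbers between 158828850 and 174674649, a long interval that also includes HAND2, and the other 3 RARα lists skip none next to the gene.

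Going away from HAND2, the next sites were of both kinds. The site 223.5 kb from HAND2, at 174674500 to 174675011, was held by MAML3 UT 2 (72.8th percentile), RA 1 (83.0th) and RA 2 (63.3rd), with a RARα peak in RARα RA 1 alone at the 7.43rd percentile. The site at 236.4 kb, at 174687399 to 174687911, was in all 4 MAML3 lists, at the 50.8th and 95.3rd percentile in UT 1 and 2 and the 85.5th and 84.4th in RA 1 and 2. RARα was listed there in UT 1 (62.5th) and RA 2 (29.0th), that is in 1 list of each treatment.

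The 3 sites with the highest ranks lay 400.4, 479.6 and 539.9 kb from HAND2, at 174851399 to 174852049, 174930600 to 174931299 and 174990899 to 174991561. All 8 lists held each of them, as they did 73 of the 10581 sites of the series (0.69%). In MAML3 UT 2, RA 1 and RA 2 all 3 stood at the score of 3100, among 16, 15 and 8 peaks at or above it. In MAML3 UT 1 they scored 1711.63, 2876.98 and 3100, which ranked 9, 4 and 2 from the top of 2222. Because of the ceiling, no difference between treatments can be read at these sites.

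RARα at the same 3 sites was high in 3 lists but not at the top. The 400.4-kb site had the 96.1st and 35.9th percentile in RARα UT 1 and 2 and the 94.6th and 95.7th in RA 1 and 2. The 479.6-kb site had the 97.7th and 58.8th in UT 1 and 2 and the 90.9th and 93.7th in RA 1 and 2. The 539.9-kb site had the 98.3rd and 80.1st in UT 1 and 2 and the 93.9th and 97.8th in RA 1 and 2. In each case UT 1 and the RA lists were close together, with UT 1 the highest, and UT 2, the shortest list, was the lowest. The overlap of the 2 treatments therefore rests on UT 2.

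The order among the 3 was less fixed. The 539.9-kb site had the highest RARα score of the 3 in UT 1 (591.56), UT 2 (189.35) and RA 2 (575.2). In RA 1 it scored 409.29, below the 421.77 of the 400.4-kb site. In the list order these sites ranked 23 to 53 of 1321 in UT 1, 51 to 162 of 251 in UT 2, 61 to 101 of 1103 in RA 1 and 24 to 68 of 1064 in RA 2. They were thus among the first peaks of a MAML3 list and further down a RARα list.

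These 3 sites were also wide. Their MAML3 peaks measured 600 to 700 bp, against list medians of 268 to 400 bp, and their RARα peaks in UT 1, RA 1 and RA 2 measured 450 to 600 bp against medians of 227.5 to 250 bp. In RARα UT 2 the 400.4-kb and 539.9-kb sites were each called as 2 adjoining peaks, so the 5 peaks of that list in the stretch stand for 3 sites.

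**Figure D2:**
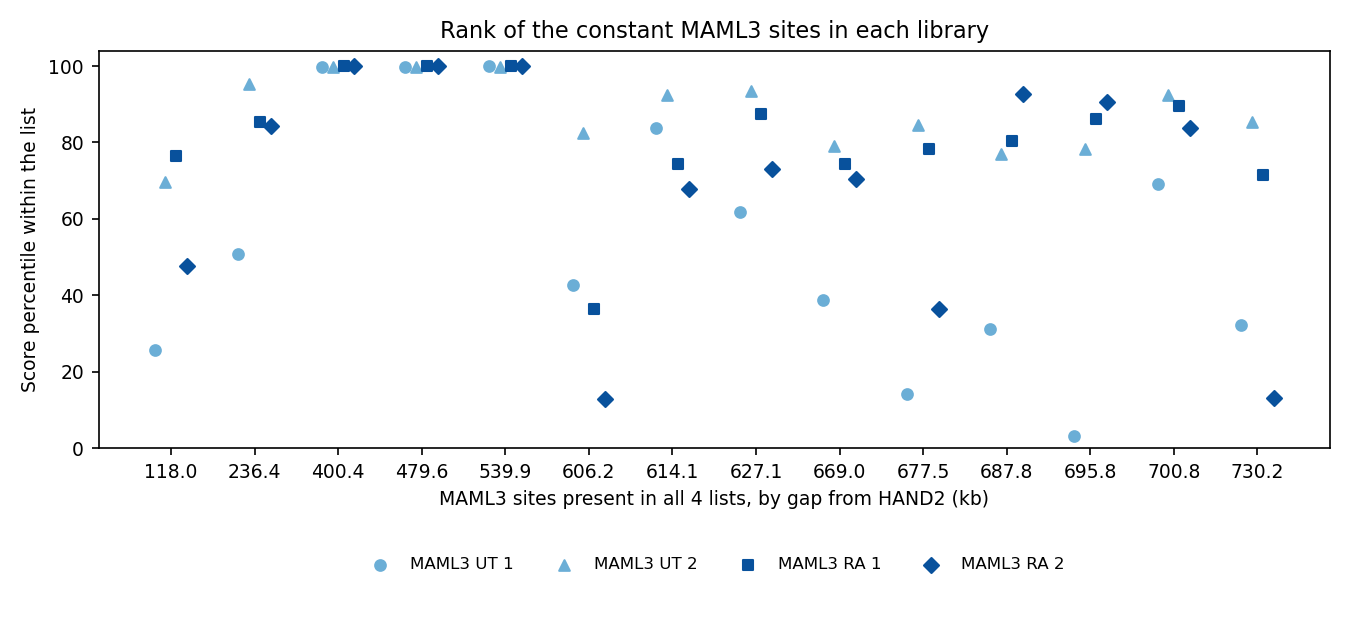
Score percentile within the list (vertical) of the 14 MAML3 sites present in all 4 lists, ordered by gap from HAND2 (horizontal, kb), with 1 point per library. The 3 sites at 400.4, 479.6 and 539.9 kb have every point above 99, while the other 11 sites have their lowest point in MAML3 UT 1 or RA 2.

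Between and around them lay weaker MAML3 sites. The site at 405.1 kb was held by UT 2 (30.6th percentile) and RA 2 (44.5th), and RA 1 alone held sites at 413.8 kb (27.8th) and 517.5 kb (58.5th). The closely spaced sites at 459.6, 461.0 and 462.1 kb are described with the other neighbouring sites. No RARα list had a peak at any of these 6 sites.

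Past the 3 strong sites, 20 MAML3 sites followed between 175020762 and 175242361, a span of 222 kb. Of these, 9 were in all 4 lists, 6 in 3, 2 in 2 and 3 in 1. MAML3 UT 1 held 12 of them, UT 2 held 18, RA 1 held 17 and RA 2 held 14. The RARα lists were less even, since UT 1 held 5 RARα sites there, RA 1 held 1, and UT 2 and RA 2 held 0.

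The far cluster was led by a pair of neighbouring sites. The site at 663.0 kb, at 175114049 to 175114449, stood at the 93.8th and 98.7th percentile in MAML3 UT 1 and 2 and the 99.1st in RA 1, and was absent from RA 2. Its neighbour at 663.9 kb, at 175114899 to 175115449, stood at the 73.0th and 97.4th percentile in UT 1 and 2 and the 99.3rd in RA 2, and was absent from RA 1. After RA each list therefore held 1 of the pair, and the 2 lists held different ones. RARα was listed at the first of the pair in UT 1 alone (60.1st percentile).

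Other sites of the cluster in all 4 MAML3 lists had middle to high ranks. The site at 700.8 kb, at 175151799 to 175152361, had the 69.2nd and 92.4th percentile in UT 1 and 2 and the 89.6th and 83.9th in RA 1 and 2. The site at 627.1 kb, at 175078149 to 175078749, had the 61.7th and 93.3rd in UT 1 and 2 and the 87.4th and 73.0th in RA 1 and 2. In both the RA values lay between the 2 UT values, and no RARα list had a peak there.

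The remaining ones were lower or more variable. The site at 669.0 kb, at 175119950 to 175120399, had the 38.8th and 79.1st percentile in UT 1 and 2 and the 74.3rd and 70.6th in RA 1 and 2, with a RARα peak in UT 1 (65.0th). The site at 677.5 kb, at 175128512 to 175128999, had the 14.2nd and 84.6th in UT 1 and 2 and the 78.3rd and 36.4th in RA 1 and 2. The site at 730.2 kb, at 175181212 to 175181611, had the 32.3rd and 85.4th in UT 1 and 2 and the 71.4th and 13.3rd in RA 1 and 2. At each of the 3, the RA values again lay within or overlapped the UT values. Over the 19 sites shared by the MAML3 UT lists, 18 ranked higher in UT 2, with a median difference of 31.6 percentile points. The UT range was thus wide, so overlap with it does not show that the treatments were alike.

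Of the 11 sites in all 4 MAML3 lists that were not at the ceiling, 4 had RA percentiles that did not overlap the UT percentiles, 2 in each direction. Both RA values were above both UT values at 687.8 kb, at 175138800 to 175139149, with the 31.3rd and 77.1st percentile in UT 1 and 2 and the 80.4th and 92.7th in RA 1 and 2. They were above also at 695.8 kb, at 175146799 to 175147311, with the 3.29th and 78.3rd in UT 1 and 2 and the 86.1st and 90.5th in RA 1 and 2. The step between the UT lists was larger at both sites than that from UT 2 to either RA list.

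Both RA values were below both UT values at 606.2 kb, at 175057179 to 175057611, with the 42.7th and 82.4th percentile in UT 1 and 2 and the 36.5th and 13.0th in RA 1 and 2. The same held at 614.1 kb, at 175065150 to 175065676, with the 83.8th and 92.5th in UT 1 and 2 and the 74.3rd and 67.8th in RA 1 and 2. Thus 2 of 11 (18.2%) were above and 2 of 11 (18.2%) below. Over the series the shares of such sites were 25.5% above and 6.12% below. With 11 sites that share libraries, no difference between the stretch and the series was tested.

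RARα was listed at 3 of these 4 sites. At 687.8 kb it had the 40.0th percentile in RARα UT 1 and the 80.2nd in RA 1, and was absent from the other 2 lists. At 695.8 kb and at 614.1 kb it was in UT 1 alone, at the 30.2nd and 26.4th percentile. A RARα peak of UT 1 thus stood both at a site where MAML3 ranked higher with RA and at one where it ranked lower.

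**Figure D3:**
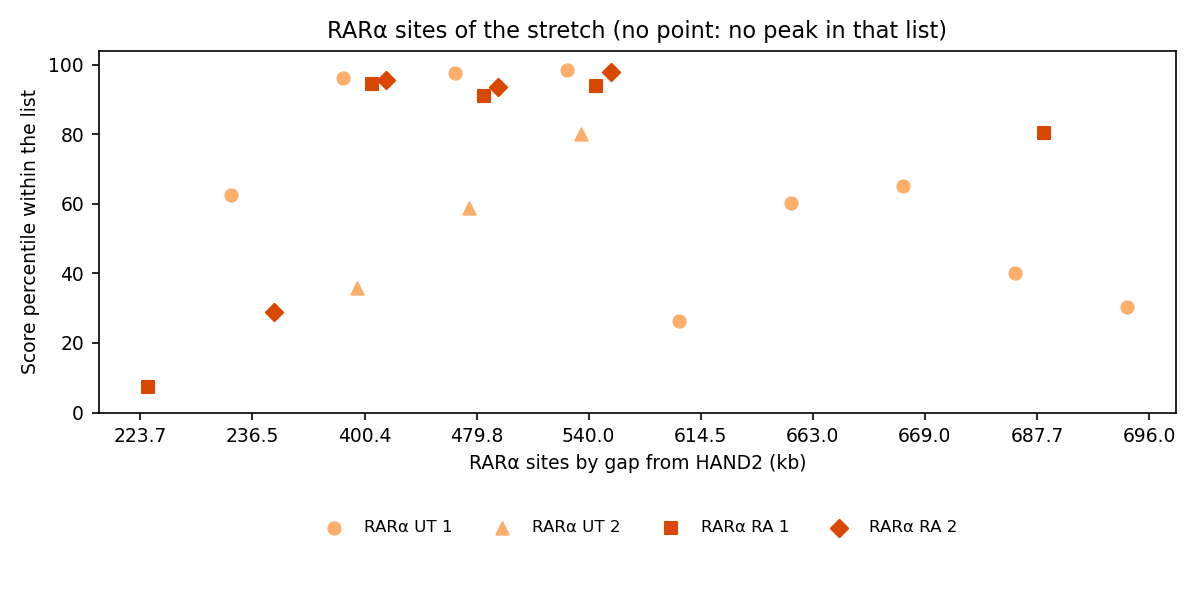
Score percentile within the list (vertical) of the 10 RARα sites of the stretch, ordered by gap from HAND2 (horizontal, kb), with 1 point per library that held the site. The 3 sites at 400.4, 479.8 and 540.0 kb have 4 points each, and the other 7 sites have 1 or 2.

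The design asks which sites depend on RA. A site was gained when it was in both RA lists and in neither UT list, and lost when it was in both UT lists and in neither RA list. None of the 35 MAML3 sites was gained, beside 9.37% of all MAML3 sites, and 1 (2.86%) was lost, beside 0.683%. Of the 10 RARα sites none was gained (5.42% of all RARα sites) and none was lost (0.472%). Absence here means only that a list names no peak, not that the protein was missing from the DNA.

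The counts depended on single lists. Without MAML3 UT 2, 5 sites were gained, among them the 3.2-kb site next to HAND2 and the 223.5-kb site, since the short UT 1 list alone then stood for untreated cells. Without MAML3 RA 2, 4 sites that only RA 1 held were gained and 3 were lost, without RA 1 there were 1 and 3, and without UT 1 there were 0 and 2. In the lists of equal length, 1 site was gained, at 699.1 kb (from 175150200 to 175150611), and 2 were lost. In the full lists that gained site was held by UT 2 too, at the 44.2nd percentile, against the 73.6th in RA 1 and the 67.8th in RA 2. For RARα, leaving out UT 2 made 4 sites of the far cluster lost, those that UT 1 alone held, and leaving out RA 2 made the 223.7-kb site gained.

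The lost MAML3 site, 462.1 kb from HAND2 at 174913066 to 174913341, stood at the 40.2nd and 70.1st percentile in UT 1 and 2. A peak of MAML3 RA 1 was 704 bp away, at 461.0 kb, where UT 2 also had a peak (61.0th percentile) and RA 1 ranked high (94.4th). The nearest peak of RA 2 was 2016 bp away, at 459.6 kb, where RA 2 stood at the 93.8th percentile, UT 1 at the 13.0th and UT 2 at the 79.9th. UT 2 thus had all 3 of these neighbouring sites, and each RA list had 1 of them, at high rank. With peaks within 1 kb joined, no site of the stretch was lost.

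**Figure D4:**
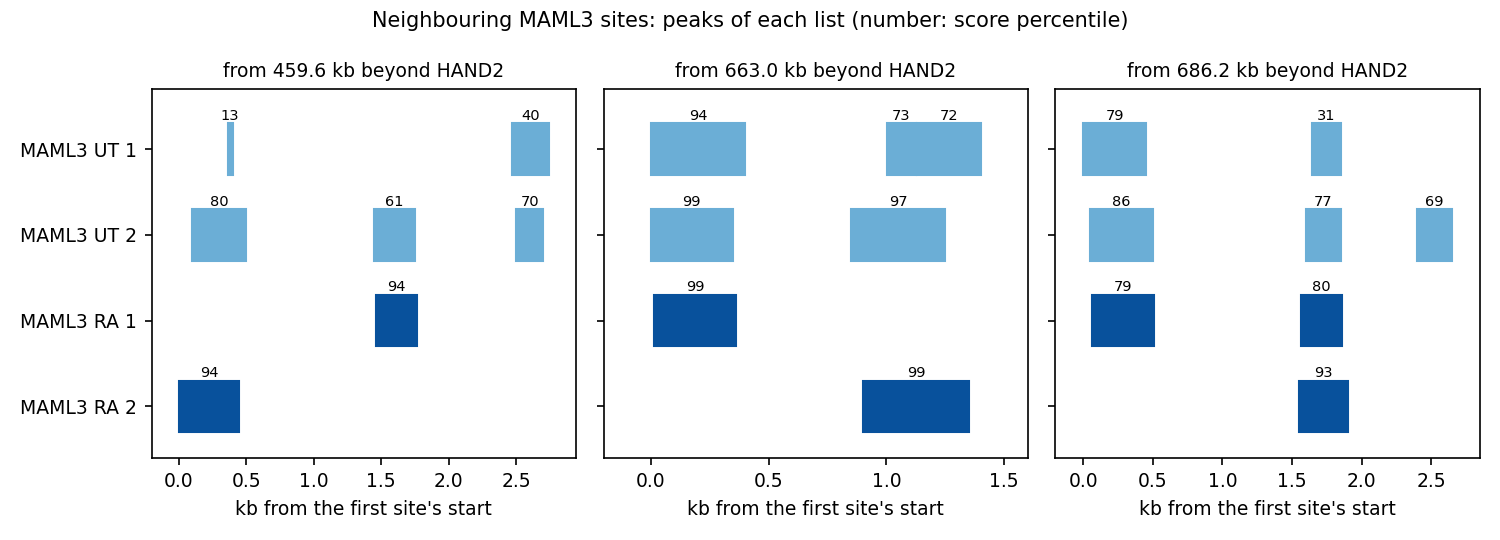
MAML3 peaks of the 4 lists (rows) at 3 groups of neighbouring sites, drawn to scale in kb from the start of the first site, with each peak's score percentile above it. MAML3 UT 2 has 3, 2 and 3 peaks in the groups, and MAML3 RA 2 has 1 in each.

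Such neighbours were resolved differently by the lists. In the stretch, MAML3 UT 1 had 3 pairs of consecutive peaks less than 1 kb apart and UT 2 had 4, whereas RA 1 and RA 2 had 0. Not all of these were separate sites, since UT 1 had the 663.9-kb and 700.8-kb sites each called as 2 adjoining peaks. Over the whole lists the share of consecutive peaks that close was 8.28 and 4.48% in UT 1 and 2, and 1.68 and 0.757% in RA 1 and 2. Gaps under 500 bp, which can be 1 site called in parts, made up 150 of 182 such pairs in UT 1. In UT 2 they made up 76 of 302, in RA 1 2 of 126 and in RA 2 0 of 47. No 2 peaks of RA 2 were closer than 650 bp anywhere on the genome. The pair at 663.0 and 663.9 kb is 449 bp apart as merged sites, which is not a gap within 1 list. Within UT 2 its peaks were 500 bp apart. In the RARα lists the genome-wide share went the other way, with 2.85 and 3.95% in UT 1 and 2 and 4.17 and 5% in RA 1 and 2. Most of these RARα pairs had gaps under 500 bp (32 of 37 and 9 of 9 in UT 1 and 2, 33 of 45 and 40 of 52 in RA 1 and 2). The closeness of calls and the treatment cannot be told apart in the MAML3 lists.

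MAML3 ranks within the stretch were more alike within a treatment than across. Over the sites that 2 lists shared, Spearman's rho of the scores was 0.85 for the UT pair (19 sites) and 0.87 for the RA pair (19 sites), and 0.46 to 0.70 for the 4 pairs across treatments (16 to 24 sites). Without the 3 strongest sites the values were 0.76 and 0.78 (16 sites each), against -0.01 to 0.56 (13 to 21 sites). The points share libraries and a chosen stretch, the UT lists may be 1 library, and these values are a description with no test.

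Of the 10 RARα sites, 3 (30%) were in all 4 RARα lists, beside 6.75% of all RARα sites, and 5 (50%) were in 1 list, beside 56%. At none of the 3 did the RA percentiles lie above both UT percentiles or below both, which over the series held for 16.2 and 2.82% of such sites. Every RARα site of the stretch coincided with MAML3. All 10 overlapped a MAML3 site of at least 1 list, beside 84.4% of all RARα sites. Among sites held by both lists of a treatment, 3 of 3 in UT and 3 of 3 in RA overlapped a MAML3 site of both lists, beside 56.1 and 81.7% over the series. They were the same 3 strong sites. RARα at those sites was among the reasons for choosing the stretch, so their overlap was known in advance. Seen from MAML3, 10 of 35 sites (28.6%) had a RARα peak in some list, beside 17% of all MAML3 sites. Among the sites in all 4 lists it was 8 of 14 (57.1%), a share near the 55.7% of the series.

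Within the stretch, the MAML3 sites with RARα ranked higher than those without. Their mean MAML3 percentiles ran from 64.6 to 99.9 with a median of 79.3 (10 sites), and those of the other 25 ran from 9.72 to 89.9 with a median of 53.4. The ranges overlapped. The highest MAML3 site with no RARα peak in any list was the second of the neighbouring pair, at 663.9 kb. The 3 strong sites, with mean MAML3 percentiles of 99.8 to 99.9, were all among the sites with RARα. Their MAML3 ranks and their RARα were reasons for choosing the stretch. The higher ranks of the sites with RARα were therefore partly set by that choice and were not tested. The same contrast over the whole series was not analysed here.

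RARα peaks sat inside the MAML3 peaks. Counting each RARα peak with each MAML3 list of its treatment that it overlapped gave 46 pairs, in which the centres were a median of 50.5 bp apart and at most 176 bp. The RARα peak lay wholly inside the MAML3 peak in 35 of them (76.1%). The 5625 such pairs outside the stretch had a median of 45 bp and 70.5% wholly inside, values near those of the stretch. A peak enters up to 2 pairs, so pairs are not independent.

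The stretch ended at unlike distances from the next MAML3 peaks outside. The nearest MAML3 peak below it was in RA 2, 30.5 kb away (48.5th percentile), and the nearest of UT 2 and RA 1 were 209 kb away, at the 12.4th and 22.4th. Just inside, the first site was that at 174408299, at the 31.7th percentile in UT 2 and the 53.0th in RA 1. Above the stretch the nearest MAML3 peak was in RA 2, 329 kb away at the 0.88th percentile, and those of UT 2 and RA 1 were 905 kb away. In the short list UT 1 the nearest were 1067 kb below (83.1st percentile) and 6632 kb above (73.8th). For RARα the nearest were 327 kb below in RARα RA 2 (14.85th) and 2749 kb above in RARα UT 1 (40.4th). The last site inside was at 175241962 to 175242361, in RA 1 alone (34.5th percentile).

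The other sites of the far cluster complete the account. Sites in 3 lists were those at 612.1 kb (40.2 as the mean percentile over its lists), 686.2 kb (81.4), 699.1 kb (61.8) and 726.5 kb (17.7), besides the neighbouring pair. The 686.2-kb site was missing from RA 2 alone, and the other 3 were missing from the short list UT 1 alone. Sites in 2 lists were those at 641.0 kb (UT 2 and RA 1) and 674.3 kb (UT 2 and RA 2). MAML3 RA 1 alone held the sites at 569.8 and 791.0 kb, and UT 2 alone held that at 688.6 kb.

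Peak numbers that are not listed bear on 3 of these absences. MAML3 UT 1 skips 1 number where RA 1 alone held the 517.5-kb site, and MAML3 RA 1 skips 1 number in each of the intervals of the RA 2 site beyond the 3′ end of HAND2 and of the 674.3-kb site. The remaining absences of MAML3 sites in the stretch, 15 in UT 1, 5 in UT 2, 5 in RA 1 and 11 in RA 2, have no unlisted number beside them. RARα RA 1 also skips 1 number between 174931200 and 174990949, and RARα UT 1 skips 1 between 175114350 and 175119999, an interval that holds the MAML3 site at 663.9 kb. The absences without an unlisted number include that of each MAML3 RA list from 1 of the pair at 663.0 and 663.9 kb.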

How the data were processed

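ChIP-seq peak lists of 8 immunoprecipitates (MAML3 or RARα, UT or RA, 2 replicates each) were analysed, and 2 input samples were not analysed here. Each sample's title gave its group and replicate number. Per the submitters' processing notes, the tools were BWA 0.5.9, bedtools and MACS, and the build was hg19. No source here states the threshold, the filter or whether an input was used. Each list gives a position, a numbered peak name and 1 score per peak, deposited with no stated scale and never below 70. It served only for ranks within a list.

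Peaks of an antibody were merged over the whole genome at 1 bp or more, and percentiles use mean ranks for ties. A site's value in a list is its highest peak. The functions were tested on simulated data. No statistical test was run. The members and lists were chosen with earlier results of these data known. Named with values were all sites with RARα, in all 4 MAML3 lists, gained or lost, nearest to HAND2, or at the borders, and the 699.1-kb site and those in fewer lists were added after their values were seen. The fullest windows, the close neighbours and the rank correlations were also added after the data were seen. Alternatives were an overlap of 50% of the shorter peak, joining within 1 kb, the upper 50% of each list by score, lists of equal length (2222 and 251 peaks), sites of at least 1 replicate, each replicate left out, other ranks for ties and width in place of the score. The gene and promoter tables at hand are on GRCh38.p14, so no gene coordinates, sequences, motifs or other adrenergic regulators were analysed. Python 3.11.15, numpy 2.4.6, scipy 1.17.1 and matplotlib 3.10.9 were used.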

Additional observations from a re-analysis of the deposited data

How the results depend on the processing

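No paired analysis was possible because the counts come from no test and no label ties a replicate number of UT to the same number of RA. Of 98 recomputed values, 78 stayed within 1.5 times the value reported (for percentiles, within the spread between lists) and 20 did not. The 50% of peaks with the highest score gave 1 gained and 0 lost MAML3 sites, lists of equal length gave 1 and 2, and joining peaks within 1 kb gave 0 lost. Leaving out 1 list gave 0 to 5 gained and 1 to 3 lost MAML3 sites, and 0 to 1 gained and 0 to 4 lost RARα sites. RARα sites that overlapped MAML3 numbered 9 in UT and 6 in RA when 1 replicate sufficed, against 3 and 3, and 3 to 9 and 3 to 5 with 1 list left out. The 3 sites in all 8 lists were also found with each list left out and at equal length, and 2 of them in the upper 50% of peaks, where RARα UT 2 decides. MAML3 sites in all 4 lists fell to 7 in the upper 50%, and RARα sites to 4 at equal length and 6 without RARα UT 1. Read depth is unknown, so an absent peak sets no limit on binding.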
